A study of Mus musculus with 9 samples.

Results

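NRF2 is the transcription factor that switches on antioxidant and detoxifying enzymes, and 10 genes of its system are described here in mouse brain after intracerebral haemorrhage (ICH). They are Nfe2l2, which encodes NRF2, its repressor Keap1 and 8 target enzymes, Nqo1, Gclc, Gclm, Srxn1, Txnrd1, Prdx1, Gsr and Gstm1. They were chosen by name, and all 10 were found, each with 1 entry, among the 36346 genes of the table. RNA was sequenced from 3 groups of C57BL/6 wild-type mice, ICH with pterostilbene (ICH+PTE), ICH without it (ICH) and a control treatment labelled sham, all taken 72 hours, or 3 days, later. Pterostilbene is a plant stilbenoid related to resveratrol. Each group held 3 mice picked at random from its animals, with 1 library a mouse. The sources used here do not state age, sex, dose, route, how the haemorrhage was made or which brain region was sampled. The study asked how pterostilbene treatment affects gene expression after this injury.

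In resting cells KEAP1 hands NRF2 to the CUL3 ubiquitin ligase, which marks it for breakdown. Oxidants and electrophiles modify cysteines of KEAP1, NRF2 then escapes, enters the nucleus, pairs with a small MAF protein and binds antioxidant response elements (AREs) near its targets. The targets make glutathione, recycle glutathione and thioredoxin, remove peroxides and conjugate or reduce reactive compounds. In brain the pathway is known to be strong in astrocytes and microglia and weak in neurons. Much of its control acts on the NRF2 protein, which RNA levels do not show.

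The libraries carried transcripts of brain markers, and none (0) of the 12 neuronal, 12 astrocyte or 8 oligodendrocyte markers was at 0 throughout the libraries of a group. That measure cannot identify the tissue. Of 22 small-intestine genes, 0 were at 0 throughout ICH+PTE, 5 throughout ICH and 7 throughout sham. Expression is in FPKM, fragments scaled to transcript length and to the mapped total of the library. The table gives no read totals, so the counting error behind a value is unknown. The summed FPKM of 16 markers of microglia and macrophages was 417 to 1045 in ICH+PTE libraries, 10668 to 13794 in ICH and 321 to 486 in sham. Each of the 16 had its highest mean in ICH, but the size of the gap differed. Spp1 and Lyz2 made up much of the ICH sum, with means of 5266 and 2734 there. Their means were 194 and 68.6 in ICH+PTE and 52.6 and 51.1 in sham. Csf1r averaged 30.2 in ICH+PTE, 77 in ICH and 24.6 in sham, and P2ry12 averaged 9.01, 16.7 and 13.9. The 12 neuronal markers summed to 475 to 667 in ICH+PTE, 199 to 277 in ICH and 600 to 681 in sham. Astrocyte markers summed to 859 to 1052, 1150 to 1184 and 663 to 792 in the same order of groups. A list of 22 small-intestine genes summed to 16.3 to 29.1 FPKM in ICH+PTE, 31.7 to 41.3 in ICH and 14.8 to 26.3 in sham, with Anpep, at means of 1.62, 17.5 and 0.789 in the same order, the most abundant of them in ICH. The 18 of these genes under the filter on low values, a subset set after their values were seen, summed to 4.89 to 8.54 FPKM in ICH+PTE, 1.75 to 2.03 in ICH and 1.40 to 2.39 in sham. Mitochondrially encoded transcripts took 25.5% to 28.9% of the summed FPKM in ICH+PTE, 13.6% to 16.7% in ICH and 21.7% to 22.9% in sham. Bulk samples cannot tell fewer cells of a type from less RNA per cell, and the part of these cell types in the results that follow was not tested.

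**Figure D1:**
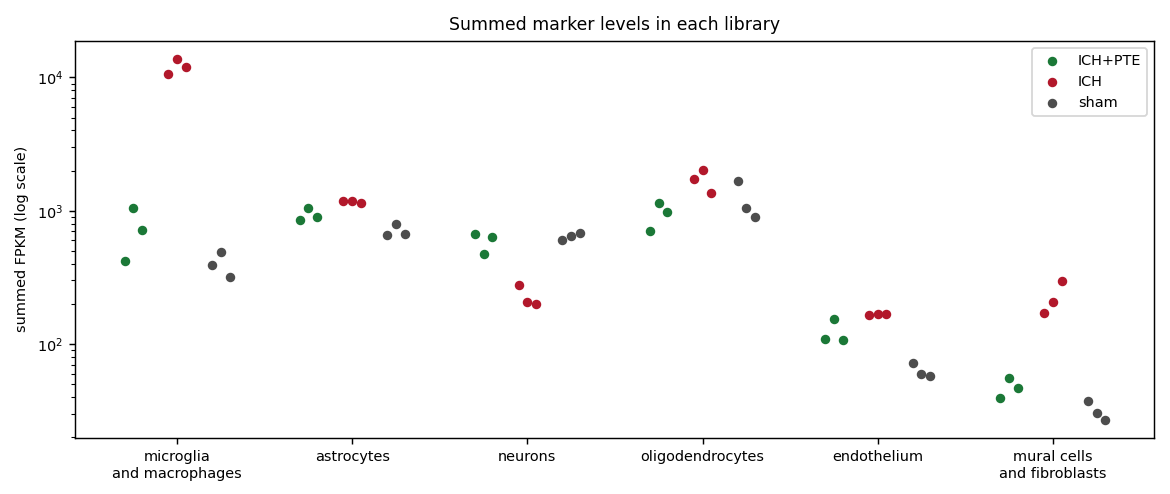
Summed FPKM of marker lists of 6 cell types (vertical axis, log scale) in each library, with 1 point per mouse and ICH+PTE, ICH and sham from left to right within each list. Microglia and macrophage markers reached 10668 to 13794 in ICH, against 417 to 1045 in ICH+PTE and 321 to 486 in sham. Spp1 and Lyz2 made up much of that sum in ICH.

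Promoter sequence was examined for the core of the ARE, the element through which NRF2 acts on its targets. RefSeq promoter windows (GRCm38.p6, 250 bases before to 50 after a transcription start) were found for 8 members, 11 windows in all. The core TGACNNNGC, searched on both strands, stood in 5 windows of 5 members, and in 12.4% of all 32851 mouse windows. The form TGACTCAGC, which contains the AP-1 motif TGACTCA, stood in the window of Prdx1 and in 0.454% of all windows. The stretches around 4 of the matches are shown because they let a reader compare the element in members whose RNA levels took different courses, and capitals mark the core or its reverse complement.
Prdx1, chr4:116685436-116685504, plus strand, core from position -133: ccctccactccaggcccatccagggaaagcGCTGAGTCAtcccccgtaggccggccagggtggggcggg
Gclm, chr3:122245393-122245461, plus strand, core from position -134: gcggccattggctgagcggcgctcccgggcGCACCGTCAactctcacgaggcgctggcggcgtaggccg
Txnrd1, second of 3 starts, chr10:82859084-82859152, plus strand, core from position -92: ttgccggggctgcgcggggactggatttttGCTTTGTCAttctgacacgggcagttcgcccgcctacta
Nfe2l2, chr2:75704885-75704913, minus strand, core from position -240: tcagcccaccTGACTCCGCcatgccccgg
Read as TGACNNNGC, the cores were TGACTCAGC in Prdx1, TGACGGTGC in Gclm, TGACAAAGC in Txnrd1 and TGACTCCGC in Nfe2l2. In Srxn1 the match, TGACCTAGC, began 28 bases after the start. The windows of Keap1, Nqo1 and Gstm1 did not hold these letters, and sequence outside the windows was not searched. Gclc and Gsr had no window. A match is a string of letters and does not show that NRF2 binds there.

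**Figure D2:**
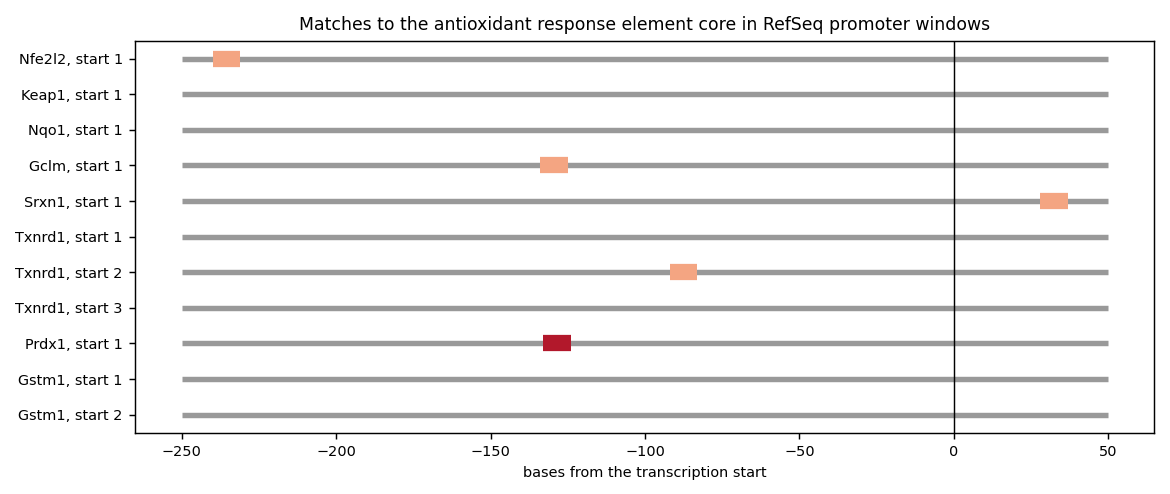
Position of TGACNNNGC matches (light blocks) and of the TGACTCAGC form (dark block, Prdx1) in the 11 promoter windows, from 250 bases before to 50 after the start. Matches began at -240 in Nfe2l2, -134 in Gclm, -133 in Prdx1, -92 in Txnrd1 and 28 in Srxn1.

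In ICH+PTE compared with ICH, the members moved in both directions, as genes of the whole table did. The calls of Txnrd1 and Gclm were lost under some of the alternatives given below. Nfe2l2, the peroxidase Prdx1, and the reductases Gsr and Txnrd1 fell, while Gclc and Gclm, the subunits of the enzyme that starts glutathione synthesis, rose together with Srxn1 and Gstm1. Changes are differences of log2(FPKM + 0.5), ± after a change is its standard error, and a gene was called at a limma p adjusted over all 15361 tested genes of under 0.05. Of the 10 members 4 rose, 4 fell and 2 (Keap1 and Nqo1) were not called. Over all tested genes 56.9% were called, 26.4% higher and 30.5% lower. For 8 members the ICH+PTE and ICH libraries did not overlap, as for 64.8% of all tested genes. The median difference was 0.02 over the members and -0.02 over all tested genes. Rescaling without haemoglobin and mitochondrially encoded genes shifted the median of all genes by 0.24 and turned 4060 higher and 4680 lower calls into 6108 and 3145. On that scale 5 members were called higher and 3 lower.

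In ICH compared with sham, Nfe2l2 and Prdx1 rose most among the members, Gsr and Txnrd1 rose less, and Gclc fell. Of the 10 members 4 rose, 1 fell and 5 were not called (Keap1, Nqo1, Gclm, Srxn1 and Gstm1). Over all tested genes 63.8% were called, 31.6% higher and 32.1% lower. For 6 members the ICH and sham libraries did not overlap, as for 73.5% of all tested genes. The median difference was 0.32 over the members and -0.02 over all tested genes. Without haemoglobin and mitochondrially encoded genes the median of all genes shifted by -0.27, 4861 higher and 4932 lower calls became 3486 and 7034, and the members' median became 0.04.

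In ICH+PTE compared with sham, 5 members rose (Gstm1, Srxn1, Prdx1, Gclm and Nfe2l2), 0 fell and 5 were not called. Over all tested genes 23.5% were called, 11.3% higher and 12.1% lower. The groups did not overlap for 6 members and for 38.6% of all tested genes. The median difference was 0.45 over the members and -0.03 over all genes. With TPM scaling, which shifted the median of all genes by -0.12, 3 members were called and the calls over all genes were 1253 higher and 2970 lower, against 1739 and 1865 without it. The number of members called was 3 without sham 1 or sham 2 and 2 without sham 3. These comparisons share libraries, so their values are given side by side and not as independent findings.

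**Figure D3:**
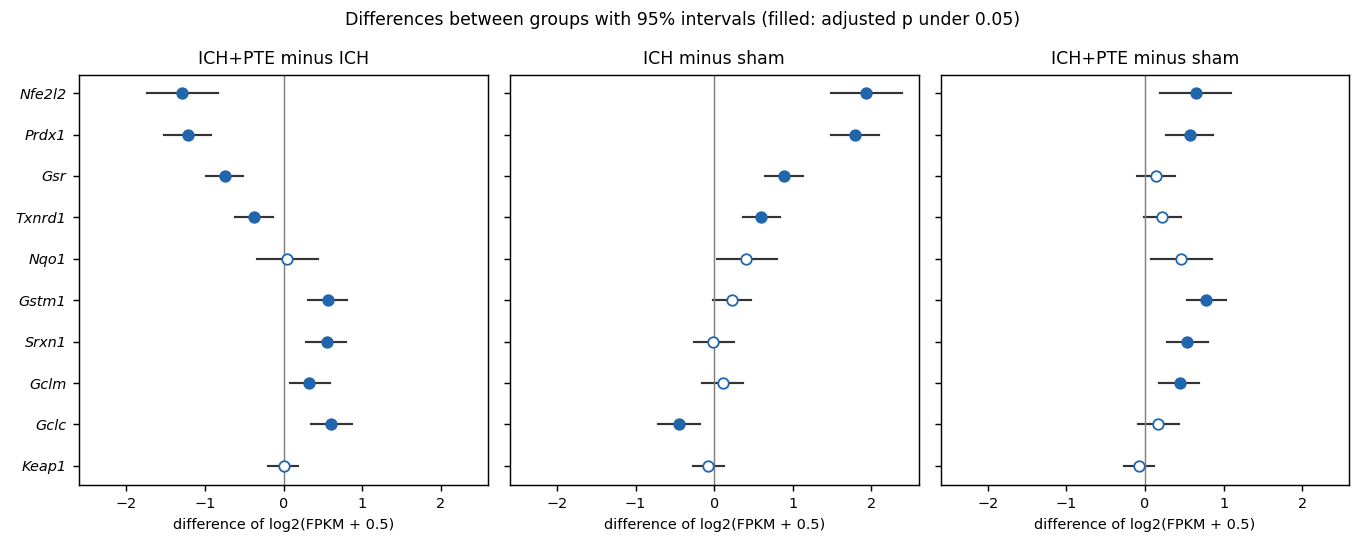
Differences of log2(FPKM + 0.5) for the 10 genes in each comparison (horizontal axis), with 95% intervals from limma as lines and filled points for an adjusted p under 0.05. Nfe2l2, Prdx1, Gsr and Txnrd1 lie left of 0 in ICH+PTE minus ICH and right of 0 in ICH minus sham.

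Nfe2l2 (ENSMUSG00000015839, chromosome 2, 75675513 to 75704641, minus strand) encodes NRF2 itself. It stood at 7.13, 13.6 and 11.0 FPKM in ICH+PTE libraries, 22.3, 29.7 and 25.6 FPKM in ICH libraries, and 5.88, 7.28 and 6.01 FPKM in sham libraries. All ICH libraries were above the other 6, and ICH+PTE 1 lay within the range of sham. The mean was 10.6 ± 3.24 FPKM in ICH+PTE, 25.9 ± 3.70 in ICH and 6.39 ± 0.772 in sham (SD, n = 3 each). The difference was -1.29 ± 0.20 for ICH+PTE minus ICH (limma adjusted p = 5.12e-04) and 1.93 ± 0.20 for ICH minus sham (2.63e-05). ICH+PTE minus sham was 0.65 ± 0.20 (adjusted p = 0.0445). That last call was lost without any of 8 of the 9 libraries in turn (adjusted p = 0.0516 to 0.130), without the low filter (0.127), with TPM scaling (0.0885) and with only the 2 groups compared (0.0764).

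Keap1 (ENSMUSG00000003308, chromosome 9, 21229730 to 21239361, minus strand) encodes the sensor that holds NRF2 down. It stood at 12.6, 11.5 and 11.2 FPKM in ICH+PTE, 11.3, 11.5 and 12.5 FPKM in ICH, and 12.6, 12.5 and 12.3 FPKM in sham. The groups overlapped in every comparison. The 95% interval was -0.20 to 0.19 for ICH+PTE minus ICH (adjusted p = 0.975), -0.27 to 0.12 for ICH minus sham (0.459) and -0.27 to 0.11 for ICH+PTE minus sham (0.534). Without haemoglobin and mitochondrially encoded genes it was called higher in ICH+PTE than in ICH (0.26, adjusted p = 0.0265) and lower in ICH than in sham (-0.37, 0.00383). TPM scaling also called it lower in ICH than in sham (-0.24, 0.0446). Relative to the shift of all genes under the first of these scalings, the differences were 0.02 and -0.10.

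Prdx1 (ENSMUSG00000028691, chromosome 4, 116685544 to 116700822, plus strand), whose promoter stretch carries the TGACTCAGC form shown above, encodes a peroxiredoxin that reduces hydrogen peroxide. It stood at 55.3, 73.5 and 62.8 FPKM in ICH+PTE, 131, 153 and 163 FPKM in ICH, and 43.5, 47.0 and 37.5 FPKM in sham. The 3 groups did not overlap, with ICH highest and sham lowest. The difference was -1.22 ± 0.13 for ICH+PTE minus ICH (limma adjusted p = 6.85e-05), 1.79 ± 0.13 for ICH minus sham (3.68e-06) and 0.57 ± 0.13 for ICH+PTE minus sham (0.0139, 0.0565 without sham 3). Of its 50-base stretches 8.99% also stand in transcripts of other genes, mainly Gm21399 and Gm7204, so some of its reads could be shared with them.

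Srxn1 (ENSMUSG00000032802, chromosome 2, 152105516 to 152109322, plus strand) encodes sulfiredoxin, which repairs peroxiredoxins that peroxide has overoxidised. It stood at 42.1, 42.1 and 49.2 FPKM in ICH+PTE, 34.3, 26.8 and 30.1 FPKM in ICH, and 29.6, 28.3 and 33.2 FPKM in sham. All 3 ICH+PTE libraries were above the other 6, while ICH and sham overlapped. Srxn1 rose by 0.55 ± 0.12 in ICH+PTE over ICH (limma adjusted p = 0.00271) and by 0.54 ± 0.12 over sham (0.00930). The interval for ICH minus sham was -0.26 to 0.25 (adjusted p = 0.970). Prdx1 had its highest values in ICH, while Srxn1, its repair enzyme, had them in ICH+PTE.

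Gsr (ENSMUSG00000031584, chromosome 8, 33652523 to 33698163, plus strand) encodes glutathione reductase, which returns oxidised glutathione to its reduced form with NADPH. It stood at 12.9, 11.9 and 10.2 FPKM in ICH+PTE, 18.1, 20.7 and 21.0 FPKM in ICH, and 10.7, 9.97 and 10.8 FPKM in sham. All ICH libraries were above the other 6, and ICH+PTE overlapped with sham. The difference was -0.75 ± 0.11 for ICH+PTE minus ICH (limma adjusted p = 2.90e-04) and 0.89 ± 0.11 for ICH minus sham (5.96e-05). For ICH+PTE minus sham the interval was -0.10 to 0.38 (adjusted p = 0.375).

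Txnrd1 (ENSMUSG00000020250, chromosome 10, 82833951 to 82897712, plus strand) encodes the cytosolic thioredoxin reductase, a selenoenzyme that keeps thioredoxin reduced. It stood at 12.7, 12.9 and 12.7 FPKM in ICH+PTE, 15.1, 16.5 and 18.7 FPKM in ICH, and 9.73, 11.1 and 11.8 FPKM in sham. The groups did not overlap, and the ICH+PTE libraries differed by a coefficient of variation of 0.809%. ICH minus sham was 0.60 ± 0.11 (limma adjusted p = 6.77e-04), and ICH+PTE minus sham was 0.22 ± 0.11 (0.158). ICH+PTE minus ICH was -0.38 ± 0.11 (adjusted p = 0.0118), a call lost without ICH 3 (0.0567), with quantile normalization (-0.25, 0.0605) and without haemoglobin and mitochondrially encoded genes (-0.11, 0.424).

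Gclc (ENSMUSG00000032350, chromosome 9, 77754535 to 77794485, plus strand) encodes the catalytic subunit of glutamate-cysteine ligase, the enzyme of the rate-limiting step of glutathione synthesis. It stood at 21.5, 15.9 and 18.9 FPKM in ICH+PTE, 12.6, 11.1 and 12.5 FPKM in ICH, and 15.4, 17.1 and 17.1 FPKM in sham. It was the only member with all 3 ICH libraries below the other 6, a pattern found in 25.2% of all tested genes. The difference was 0.61 ± 0.12 for ICH+PTE minus ICH (limma adjusted p = 0.00156) and -0.45 ± 0.12 for ICH minus sham (0.00748). For ICH+PTE minus sham the interval was -0.09 to 0.43 (adjusted p = 0.330). The neuronal markers were also lowest in ICH, at 199 to 277 summed FPKM.

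Gclm (ENSMUSG00000028124, chromosome 3, 122245557 to 122270732, plus strand) encodes the modifier subunit, which makes the same ligase more efficient. It stood at 14.0, 10.6 and 11.0 FPKM in ICH+PTE, 9.38, 8.62 and 9.83 FPKM in ICH, and 8.43, 8.5 and 8.78 FPKM in sham. All ICH+PTE libraries were above the other 6, with ICH+PTE 1 farthest. The difference was 0.33 ± 0.11 for ICH+PTE minus ICH (limma adjusted p = 0.0299) and 0.44 ± 0.11 for ICH+PTE minus sham (0.0215). The first call was lost without ICH+PTE 1 (0.21, 0.0730), ICH 1 (0.0595) or ICH 2 (0.106), without the low filter (0.0518), with array weights (0.0538) and with only the 2 groups compared (0.0599). The second was lost without any of the 3 sham libraries (0.0546 to 0.0652) and with TPM scaling (0.0847). ICH minus sham was 0.11 ± 0.11 (0.438). In that comparison Gclc was called lower and Gclm was not called, and the difference between the subunits was not tested. Other annotated genes overlap Gclm, the most abundant at a mean of 2.13 FPKM, and whether counting used strand is not stated.

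Gstm1 (ENSMUSG00000058135, chromosome 3, 108012255 to 108017973, minus strand) encodes a mu-class glutathione S-transferase, which joins glutathione to electrophiles and is abundant in astrocytes. It stood at 169, 164 and 135 FPKM in ICH+PTE, 116, 102 and 99.1 FPKM in ICH, and 89.8, 94.1 and 87.2 FPKM in sham. The 3 groups did not overlap, with ICH+PTE highest. The difference was 0.56 ± 0.11 for ICH+PTE minus ICH (limma adjusted p = 0.00182) and 0.78 ± 0.11 for ICH+PTE minus sham (0.00135). ICH minus sham was 0.22 ± 0.11 (0.104). Astrocyte markers moved both ways in ICH+PTE against ICH, with 4 of 12 called higher, among them Gjb6 (0.99), and 4 called lower, among them Gfap (-0.67), which made up much of their summed FPKM (means of 425 in ICH+PTE and 665 in ICH).

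Gstm1 belongs to a cluster of close copies, and 19.9% of its 50-base stretches also stand in transcripts of other genes, mainly Gstm2-ps1 and Gstm3. Reads of these genes cannot be told apart there, so its values are uncertain to that extent. Gstm2-ps1 stood at 4.75, 5.02 and 4.78 FPKM in ICH+PTE, 4.14, 2.66 and 4.02 in ICH, and 3.05, 2.42 and 3.12 in sham, far below Gstm1. Gstm5, another mu-class enzyme, stood at 87.6, 62.2 and 67.1 FPKM in ICH+PTE, 43.7, 36.4 and 42.7 in ICH, and 79.2, 58.5 and 64.2 in sham. Its difference was 0.80 for ICH+PTE minus ICH (limma adjusted p = 0.00151) and -0.70 for ICH minus sham (0.00249). Gstm2 took the reverse course, with -1.72 ± 0.27 for ICH+PTE minus ICH (4.70e-04) and 2.18 ± 0.27 for ICH minus sham (6.77e-05).

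Nqo1 (ENSMUSG00000003849, chromosome 8, 107388225 to 107403206, minus strand) encodes the quinone reductase that is often used as a readout of NRF2 activity. It was the lowest member in every group, at 3.18, 3.62 and 3.23 FPKM in ICH+PTE, 4.18, 3.29 and 2.38 FPKM in ICH, and 2.57, 2.36 and 1.97 FPKM in sham. The ICH libraries spread over a factor of 1.75, and ICH 3 fell within the range of sham. The interval was -0.34 to 0.44 for ICH+PTE minus ICH (limma adjusted p = 0.824). ICH minus sham was 0.41 ± 0.17 (0.0592), and it was called without ICH 3 (0.59, 0.0103) and with the median of ratios (0.42, 0.0481). ICH+PTE minus sham was 0.46 ± 0.17 with no overlap between the groups (0.0805, and 0.0486 without ICH 3).

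**Figure D4:**
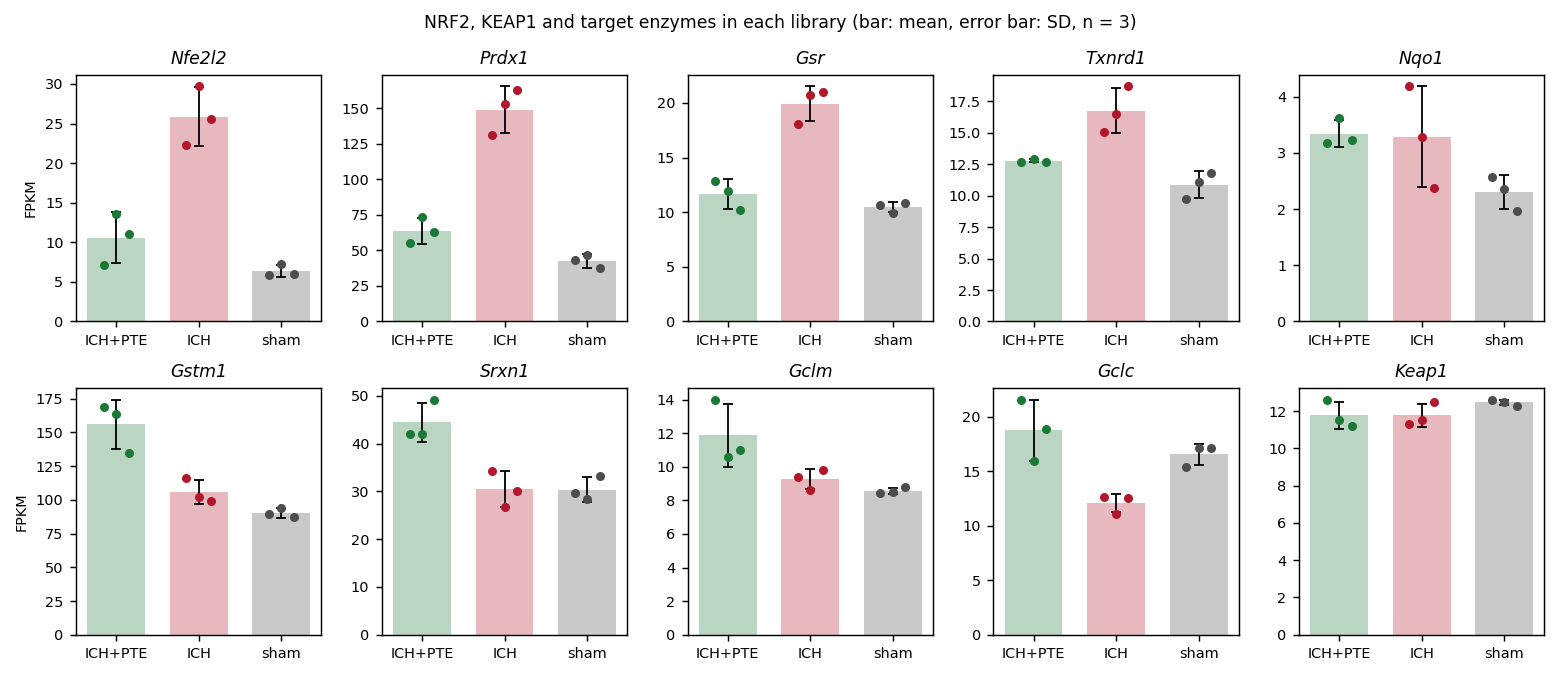
FPKM of the 10 genes (vertical axes, from 0) in each library, with points for single mice, bars for the mean and error bars for the SD of 3 mice, and ICH+PTE, ICH and sham from left to right. Nfe2l2, Prdx1, Gsr and Txnrd1 are highest in ICH, Gstm1, Srxn1 and Gclm are highest in ICH+PTE, and Gclc is lowest in ICH.

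Across the 9 libraries the members fell into a few shapes. All 3 ICH libraries stood above the other 6 for Nfe2l2, Txnrd1, Prdx1 and Gsr, a shape held by 27.8% of all tested genes. All 3 ICH+PTE libraries stood above the other 6 for Gclm, Srxn1 and Gstm1, a shape held by 4.82%. Txnrd1, Prdx1 and Gstm1 had all sham libraries below the other 6, as did 12.8% of tested genes. Of the members 0 had all ICH+PTE libraries below the other 6 (6.96% of tested genes), and 0 had all sham libraries above them (13.6%). By mean FPKM, a scale corrected for transcript length, the order in ICH+PTE was Gstm1 (156), Prdx1 (63.9), Srxn1 (44.5) and Gclc (18.8), and then Txnrd1, Gclm, Keap1, Gsr and Nfe2l2 between 12.7 and 10.6, whose neighbours' ranges overlapped, with Nqo1 last (3.35). In ICH the order began with Prdx1 (149) above Gstm1 (106), without overlap, and Nfe2l2 (25.9) came next after Srxn1 (30.4), with overlap. In sham it began with Gstm1 (90.4), Prdx1 (42.6), Srxn1 (30.4) and Gclc (16.6), with no overlap between these neighbours, and Nfe2l2 (6.39) stood above Nqo1 only (2.30).

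For each member the 3 tested genes with the most similar course were sought by Pearson's r of log2(FPKM + 0.5) over the 9 libraries, a measure that group differences dominate. Nfe2l2 ran closest to Parvb (0.998), Hcls1 (0.997) and Dock2 (0.997), the last 2 known from blood cells, and 14.5% of all tested genes reached an r of 0.9 with it. Prdx1 ran closest to P4hb, Fermt3 and Tgfb1 (0.998 each), and 15.9% of genes reached 0.9. Gsr ran with Irak2 (0.998) and Txnrd1 with Bambi-ps1 (0.988). Gclc ran closest to Ubr3 (0.993) and Klhl12 (0.991). Fewer genes shared the course of the others, 0.417% for Gclm (Stx17, 0.981), 0.274% for Srxn1 (the ferroxidase Heph, 0.973) and 0.502% for Gstm1 (Cops5 and Lrrc57, 0.976 each). For Keap1 (Arfgap1, 0.923) and Nqo1 (Rpl7a-ps3, 0.930), 4 and 3 genes reached 0.9.

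Of 15 other regulators of NRF2, 5 rose and 3 fell in ICH+PTE against ICH (median difference 0.18, all genes -0.02), beside 26.4% higher and 30.5% lower over all tested genes, or 8 and 1 without haemoglobin and mitochondrially encoded genes, and 4 rose and 5 fell in ICH against sham (median 0.07), beside 31.6% and 32.1%. These shares called are close to those of the whole table. The median in ICH against sham was -0.10 with TPM scaling, -0.02 with quantile normalization, -0.22 without haemoglobin and mitochondrially encoded genes and -0.28 with a mean FPKM of at least 5, where 0 rose and 4 fell of 8 tested. Cul3, the ligase scaffold that KEAP1 uses, averaged 28.2 ± 4.15 FPKM in ICH+PTE, 17.8 ± 0.417 in ICH and 26.5 ± 1.05 in sham, with 0.64 ± 0.11 for ICH+PTE minus ICH (limma adjusted p = 8.27e-04) and -0.56 ± 0.11 for ICH minus sham (0.00131). Gsk3b and Btrc, kinase and ligase adaptor of a KEAP1-independent route of NRF2 breakdown, moved in the same directions, at 0.89 and 0.59 for ICH+PTE minus ICH and -0.95 and -1.09 for ICH minus sham.

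Bach1, a haem-sensing repressor that competes with NRF2 at AREs, averaged 4.13 ± 0.357 FPKM in ICH+PTE, 5.46 ± 0.380 in ICH and 2.47 ± 0.419 in sham. It rose by 1.01 ± 0.13 in ICH over sham (limma adjusted p = 8.87e-05). Its fall in ICH+PTE against ICH (-0.36 ± 0.13, 0.0352) was called under 9 of 19 alternatives (0.0170 to 0.512). Among small MAF partners, Maff rose in ICH over sham (1.53 ± 0.19, 7.98e-05) and in ICH+PTE over ICH (0.61 ± 0.19, 0.0204, but 0.0537 without ICH 1, 0.0674 without ICH 2 and 0.0584 without the low filter), and Mafk rose in ICH over sham (0.91 ± 0.17, 9.22e-04). Mafg fell in ICH+PTE against ICH (-0.51 ± 0.12, 0.00554, and -0.24, 0.114, without haemoglobin and mitochondrially encoded genes). The related factor Nfe2l1 was lower in ICH than in sham (-0.59 ± 0.09, 2.17e-04) and in ICH+PTE than in sham (-0.41 ± 0.09, 0.00938). Sqstm1, which encodes the autophagy receptor p62 that binds KEAP1, stood at 99.7 ± 12.7, 96.1 ± 3.95 and 104 ± 6.82 FPKM in ICH+PTE, ICH and sham and was not called (adjusted p = 0.735 for ICH+PTE minus ICH and 0.366 for ICH minus sham), though with quantile normalization it was 0.38 (0.00537) and -0.37 (0.00516) in these comparisons, and without haemoglobin and mitochondrially encoded genes 0.32 (0.0201) and -0.42 (0.00415). Dpp3, a peptidase that binds KEAP1, fell in ICH+PTE against ICH (-0.86 ± 0.11, 1.32e-04).

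Of 13 other genes for glutathione and NADPH supply, 2 rose and 7 fell in ICH+PTE against ICH (median -0.34), beside 26.4% and 30.5% of all tested genes. With quantile normalization 2 rose and 5 fell (median -0.19), as they did without haemoglobin and mitochondrially encoded genes (-0.07). In ICH against sham 9 rose and 1 fell (median 0.83), beside 31.6% and 32.1%. Ggt5, counted as a fall in the first comparison and a rise in the second, reached the filter only in ICH (1.58 to 1.66 FPKM). Pgd and Taldo1, enzymes of the pentose phosphate pathway that yields NADPH, averaged 8.32 ± 0.780 and 33.4 ± 5.90 FPKM in ICH+PTE, 22.6 ± 2.75 and 99.4 ± 7.86 in ICH, and 5.48 ± 0.702 and 39.4 ± 5.32 in sham. Their differences were -1.38 and -1.57 for ICH+PTE minus ICH (limma adjusted p = 2.66e-05 and 2.48e-05) and 1.95 and 1.33 for ICH minus sham. Slc7a11, the cystine transporter that feeds glutathione synthesis, was highest in ICH+PTE, as Gclm was, with 5.47 ± 1.13 FPKM in ICH+PTE, 2.54 ± 0.427 in ICH and 2.90 ± 0.635 in sham. It rose by 0.97 ± 0.18 over ICH (adjusted p = 0.00139) and by 0.82 ± 0.18 over sham (0.0113). Its partner chain Slc3a2 fell in ICH+PTE against ICH (-0.44 ± 0.11, 0.00602), a call lost with quantile normalization (-0.23, 0.0785) and without haemoglobin and mitochondrially encoded genes (-0.17, 0.151). Gss, which completes glutathione, was not called in any comparison (adjusted p = 0.450, 0.0834 and 0.402), while G6pdx rose in ICH over sham (0.83 ± 0.09, 3.73e-05), as did the malic enzyme Me1 (0.52 ± 0.12, 0.00314, and 0.23, 0.117, without haemoglobin and mitochondrially encoded genes).

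Thioredoxins and peroxiredoxins other than the members had 1 rise and 8 falls among 12 in ICH+PTE against ICH (median -0.52), beside 26.4% higher and 30.5% lower over all tested genes, or 2 and 6 without haemoglobin and mitochondrially encoded genes (median -0.26). They had 8 rises and 0 falls in ICH against sham (median 0.67), beside 31.6% and 32.1%. Txn1, the substrate of TXNRD1, averaged 46.1 ± 5.85 FPKM in ICH+PTE, 107 ± 8.60 in ICH and 31.1 ± 3.84 in sham, with -1.20 ± 0.12 for ICH+PTE minus ICH (limma adjusted p = 4.80e-05) and 1.76 ± 0.12 for ICH minus sham (2.63e-06). Prdx6 and Prdx4 fell by 0.93 and 0.91 in ICH+PTE against ICH. Txnip, an inhibitor of thioredoxin, rose in ICH over sham (1.34 ± 0.12, 8.69e-06) and in ICH+PTE over sham (1.29 ± 0.12, 1.31e-04), and its difference between ICH+PTE and ICH was -0.05 (0.742). The rise in the first comparison was Txnrd3, a reductase best known from testis, at 0.56 ± 0.20 (0.0345), with a mean of 0.864 FPKM in sham. That call was lost without any of ICH+PTE 1, ICH+PTE 2, ICH 1, ICH 2 and ICH 3 (0.0654 to 0.108), without the low filter (0.0893) and with array weights (0.0783).

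Glutathione S-transferases other than Gstm1 had 2 rises and 7 falls among 16 tested of 21 listed in ICH+PTE against ICH (median -0.35). Over all tested genes 26.4% were called higher and 30.5% lower there. In ICH against sham the list had 9 rises and 1 fall (median 0.41), beside 31.6% and 32.1%. The 2 rises were the mu-class genes Gstm5 and Gstm7 (0.36 ± 0.13, limma adjusted p = 0.0374, called under 14 of 20 alternatives). Among the tested, 3 had a group mean under 1 FPKM (Gstm2, Gstt2 and Gstt3). Gstt2, counted as a fall and in ICH against sham as a rise, reached the filter only in ICH (1.58 to 1.87 FPKM). Gstm2 and Gstt3, counted likewise, met it only with the ICH libraries included. Without haemoglobin and mitochondrially encoded genes the first count became 4 rises and 4 falls (median -0.09) and the second 5 and 3 (0.13). Leaving out single libraries gave 1 to 4 rises and 5 to 8 falls in the first, and 6 to 10 rises, the lowest without sham 3, in the second. Gsto1 and the membrane-bound Mgst1 fell by 1.05 and 0.82 in ICH+PTE against ICH (limma adjusted p = 1.19e-04 and 1.43e-04), and Gsta4, which clears lipid aldehydes, rose in ICH+PTE over sham (0.62 ± 0.10, 0.00284).

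Quinone, aldehyde and export genes had 0 rises and 13 falls among 14 tested in ICH+PTE against ICH (median -0.87). Over all tested genes 26.4% were called higher and 30.5% lower there. In ICH against sham the list had 12 rises and 1 fall (median 1.40), beside 31.6% and 32.1%. Without haemoglobin and mitochondrially encoded genes the first count became 1 rise and 9 falls (median -0.63) and the second 11 and 2 (1.11). Without the low filter the first was 1 rise and 11 falls among 15 tested. Nqo1, a member described above and not counted in this list, was not called in either comparison. The list was led by Ptgr1, a reductase of prostaglandins and leukotriene B4, at -2.30 ± 0.32 for ICH+PTE minus ICH (limma adjusted p = 2.34e-04) and 2.92 ± 0.32 for ICH minus sham (3.16e-05). Akr1b8, an aldo-keto reductase, averaged 4.22 ± 1.83 FPKM in ICH+PTE, 8.90 ± 1.35 in ICH and 0.855 ± 0.573 in sham. Ugt1a6a, a glucuronosyltransferase, averaged 2.81 ± 0.332 FPKM in ICH+PTE, 5.82 ± 1.77 in ICH and 1.03 ± 0.248 in sham. Trex1 (-1.92 and 1.89 in these comparisons) is a DNA exonuclease and not a detoxifying enzyme. Of this list 3 tested genes had a group mean under 1 FPKM. Among these, Osgin1 reached the filter only in ICH (1.46 to 2.12 FPKM) and was counted as a fall and as a rise.

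Haem and iron genes had 0 rises and 6 falls among 7 in ICH+PTE against ICH (median -1.31). Over all tested genes 26.4% were called higher and 30.5% lower there. In ICH against sham the list had 6 rises and 0 falls (median 1.76), beside 31.6% and 32.1%. Ftl1, the ferritin light chain, averaged 449 ± 155 FPKM in ICH+PTE, 4183 ± 560 in ICH and 237 ± 44.2 in sham. Hmox1, the haem oxygenase that both NRF2 and BACH1 control, averaged 193 ± 56.5 FPKM in ICH+PTE, 493 ± 64.2 in ICH and 14.6 ± 9.78 in sham. It was higher in ICH+PTE than in sham (3.94 ± 0.50, limma adjusted p = 7.44e-04). Its libraries did not overlap between ICH+PTE (142, 254 and 183 FPKM) and ICH (432, 485 and 560). The fall of Hmox1 in ICH+PTE against ICH (-1.38 ± 0.50, limma adjusted p = 0.0358) was called under 12 of 20 alternatives. The call was lost without ICH+PTE 1, ICH+PTE 3 or any of the 3 ICH libraries (0.0584 to 0.108) and without the low filter (0.116). It was also lost with quantile normalization (-0.81, 0.183) and without haemoglobin and mitochondrially encoded genes (-1.11, 0.0823). In ICH+PTE against ICH the list had 4 falls without the low filter and 4 with quantile normalization. Without haemoglobin and mitochondrially encoded genes it had 1 rise and 5 falls (median -1.08). Fth1, the ferritin heavy chain, was also higher in ICH+PTE than in sham (0.99 ± 0.21, 0.00899), and biliverdin reductase Blvrb was not called there (0.02, 0.919).

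In ICH+PTE against sham, where 11.3% of all tested genes were called higher and 12.1% lower, genes of glutathione and NADPH supply had 6 rises and 0 falls (median 0.37), thioredoxins and peroxiredoxins 6 and 0 (0.39), glutathione S-transferases 3 and 0 (0.18), quinone, aldehyde and export genes 4 and 1 (0.21) and haem and iron genes 3 and 0 (0.24), beside a median of -0.03 over all tested genes. With TPM scaling the rises were 5, 6, 2, 2 and 3 in the same order of lists, and the falls were 2, 2, 1, 1 and 0. The rises of quinone, aldehyde and export genes were 7 without ICH+PTE 1 and 2 without ICH+PTE 2, ICH+PTE 3, ICH 3 or sham 1. Haem and iron genes had 2 rises without ICH+PTE 2, sham 1 or sham 3, and 1 without the low filter. Regulators had 3 rises and 3 falls (median -0.09). The target lists had positive medians in ICH against sham and negative medians in ICH+PTE against ICH with each of the 4 other scalings tried.

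**Figure D5:**
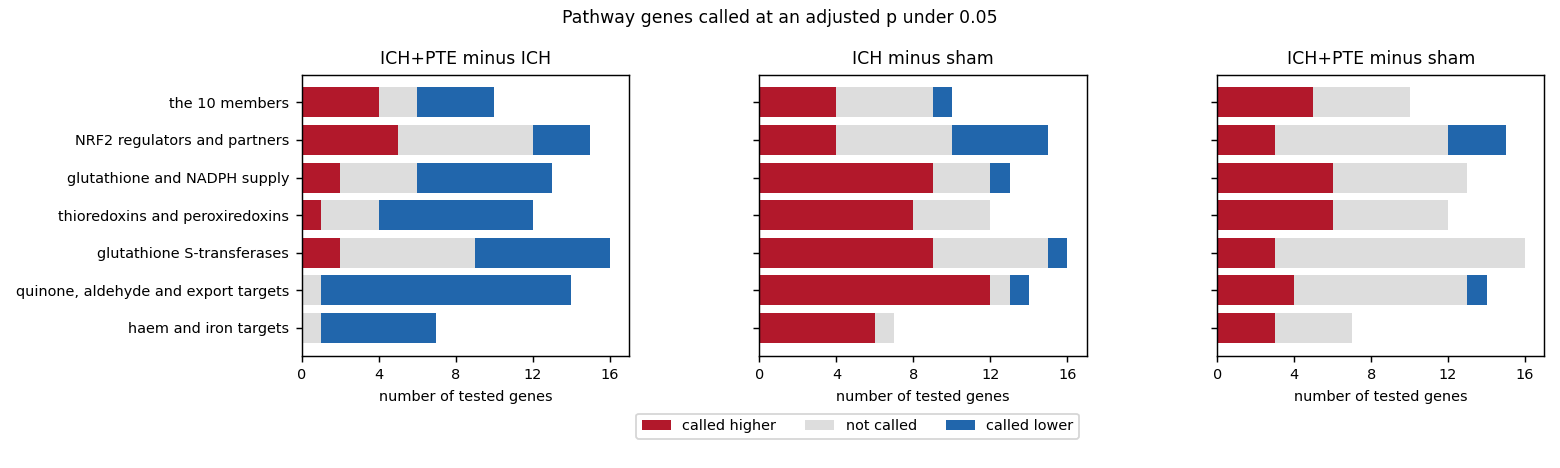
Number of tested genes (horizontal axis) called higher (red), not called (grey) and called lower (blue) in each comparison, for the 10 members and 6 lists of other pathway genes. Quinone, aldehyde and export genes had 0 higher and 13 lower calls of 14 in ICH+PTE minus ICH, while the members had 4 higher and 4 lower. Over all tested genes 26.4% were called higher and 30.5% lower there. Without haemoglobin and mitochondrially encoded genes, a scale not drawn, the quinone, aldehyde and export genes had 1 higher and 9 lower calls.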

How the data were processed

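RNA-seq libraries of 9 mouse brains, 1 per mouse, were analysed. Per the labels' protocols, messenger RNA was captured on oligo(dT) beads and the libraries keep strand through dUTP in the second strand. The authors deposited FPKM values for 36346 genes, and the submitters' processing notes name cutadapt 1.9, HISAT2 2.0.4 and StringTie 1.3.4d. No source names the genome build, so coordinates stand as deposited. They equal those of GENCODE M21 for 91.7% of shared genes and 9 of the 10 members.

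FPKM values are not counts, so limma 3.58.1 (R 4.3.3) was fitted with a mean-variance trend to log2(FPKM + 0.5) of all 9 libraries, with 6 residual degrees of freedom. The fold of low genes is understated on this scale. Genes with at least 1 FPKM in at least 3 libraries were tested (15361, all 10 members among them), and repeated symbols were reduced to the entry of highest mean. P-values, Benjamini-Hochberg adjusted over all tested genes, reflect how much mice of 1 group vary. The fit was tested on simulated data.

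The members, gene lists and tests were chosen with earlier results of these data known. Named beside the members were 12 fixed pathway genes and, per list and comparison, the 2 called genes of largest difference with a mean of at least 2 FPKM in the higher group. Gstm5, Gstm7 and Gstm2-ps1 fall outside that rule and were chosen after their values were seen. Alternatives were other pseudocounts, filters and scalings, array weights, 2 groups only, a replicate block and leaving out each library.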

Additional observations from a re-analysis of the deposited data

How the results depend on the processing

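Over 20 alternatives, 549 of 597 member differences kept their direction and side of the threshold, 25 lost and 6 gained a call, and 17 changed sign. Every sign change was of a difference not called without the alternative. Some alternatives could change the p-value of a difference but not the difference itself. These were leaving out a library of the group not compared, using only the 2 groups compared, and the replicate block. The totals thus include differences that could not change sign. Keap1 in ICH+PTE minus ICH became 0.10 with quantile normalization, 0.03 with TPM scaling, 0.02 with the median of ratios and 0.26 without haemoglobin and mitochondrial genes, and lay between -0.05 and 0.04 without single libraries. Gclm in ICH minus sham became -0.06 with TPM scaling and -0.18 without haemoglobin and mitochondrial genes. Gstm1 in ICH minus sham became -0.03 with quantile normalization and -0.08 without those genes. Srxn1 in ICH minus sham became 0.01 with the median of ratios and 0.00 with array weights, and lay between -0.09 and 0.08 without single libraries. Nqo1 in ICH+PTE minus ICH lay between -0.13 and 0.22. The cause was not tested.

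The number of members called without single libraries was 7 to 8 in ICH+PTE minus ICH, 5 to 6 in ICH minus sham and 2 to 5 in ICH+PTE minus sham, where it was 3 with TPM scaling. Over all genes 7218 to 8764, 8509 to 10357 and 2130 to 3714 were called without single libraries. With a mean FPKM of at least 5, which tests fewer genes, 5248, 5683 and 2353 were called. Same-numbered libraries correlated by 0.004 to 0.262 in their deviations from group means, and by over 0.1 in 3 of 9 pairs. With 3 libraries in a group, these values cannot tell whether same-numbered mice were paired or shared a batch. Libraries correlated best with their own number in 7 of 18 cases. With the replicate block 8, 6 and 5 members were called, Nqo1 in ICH minus sham being added (adjusted p = 0.0367), and 8941, 9924 and 3836 genes. The unknown depth gives no counting error for Nqo1 and other low genes. Of 2118 differences of the named pathway genes compared in the same way, 1985 kept direction and side, 62 lost and 33 gained a call, and 38, of which 0 had been called, changed sign. These totals too include differences that could not change sign.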

Other observations

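Within the ICH+PTE group, the library with the most microglia and macrophage marker FPKM (ICH+PTE 2, 1045, against 714 in ICH+PTE 3 and 417 in ICH+PTE 1) also had the most Nfe2l2 (13.6, 11.0 and 7.13 FPKM in the same order of libraries) and the most Prdx1 (73.5, 62.8 and 55.3). Gsr and Txnrd1, which like them were highest in ICH, did not share that order, at 11.9, 10.2 and 12.9 FPKM for Gsr and 12.9, 12.7 and 12.7 for Txnrd1. The neuronal marker sum ran the other way, at 475, 633 and 667, as did Gclc, at 15.9, 18.9 and 21.5 FPKM. The other groups shared these orders only in part. In ICH 1, 2 and 3 the microglia and macrophage sum was 10668, 13794 and 11922. Nfe2l2 followed it, at 22.3, 29.7 and 25.6 FPKM, and Prdx1 did not, at 131, 153 and 163. The neuronal sum was 277, 206 and 199 there, and Gclc 12.6, 11.1 and 12.5. In sham 1, 2 and 3 the microglia and macrophage sum was 390, 486 and 321. Prdx1 followed it, at 43.5, 47.0 and 37.5, and Nfe2l2 did not, at 5.88, 7.28 and 6.01. The neuronal sum was 600, 647 and 681 in these sham libraries, and Gclc 15.4, 17.1 and 17.1. With 3 libraries in a group no test of such an order is possible at the usual threshold.

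The 10 neutrophil markers summed to 19.3 to 32.1 FPKM in ICH+PTE, 37.7 to 54.6 in ICH and 5.34 to 6.01 in sham. The markers did not move together in ICH+PTE against ICH. Of the 4 tested, 2 were called lower, Csf3r (-2.08) and Mmp8 (-2.22). The other 2, S100a8 (-0.05) and S100a9 (0.20), were not called. Erythroid transcripts summed to 30.5, 33.7 and 266 FPKM in ICH+PTE, 60.5 to 92.3 in ICH and 12.1 to 32.5 in sham, with ICH+PTE 3 far above the other libraries of its group. Markers of endothelium summed to 108 to 153 FPKM in ICH+PTE, 164 to 168 in ICH and 57.6 to 71.9 in sham. Markers of mural cells and fibroblasts summed to 39.5 to 56.0 FPKM in ICH+PTE, 172 to 298 in ICH and 27.1 to 37.3 in sham. The part of these cells in the levels of the members was not tested.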
